A study of Mus musculus with 9 samples.

Results

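The plasmacytoid dendritic cell (pDC) genes described here are 9 mouse genes, Siglech, Ccr9, Ly6d, Cox6a2, Pacsin1, Spib, Klk1, Cd300c and Runx2. They were taken by gene symbol from a table of 54532 genes, and all 9 were found there. RNA had been sequenced from dendritic cells (DCs) sorted from mouse spleens, with 3 samples in each of 3 groups. N-mDCs were mature conventional DCs (cDCs) of normal, untreated mice. T-mDCs were mature cDCs of mice with T cell acute lymphoblastic leukemia (T-ALL), and T-DCs were CD11c+ cells with low surface MHC class II (MHCIIlo), labelled immature DCs, from spleens with the same leukemia. The leukemia was driven by a retrovirus that carries the intracellular domain of Notch1 (ICN1) together with GFP. GFP+ leukemia cells were passed into C57BL/6J or C57B6.SJL recipients without irradiation, so the host kept its own immune cells. The methods give young adult female mice, and sorting at a late stage of the disease. The labels do not say which recipient strain gave which sample, or whether a sample pooled several mice. Where nothing says that samples came from separate animals, p-values measure only the spread between these samples. T-DCs were sorted after red cell lysis and CD11c bead enrichment from cells without GFP or lineage markers, and the methods give no Siglec-H gate for these sorts. The paper stained all 3 populations for Siglec-H by flow cytometry and reports that T-DCs lacked it. That stain is a measure of protein, whereas the values here are RNA. In its single-cell data of sorted T-DCs, the paper categorized a very small cluster as pDCs. It also reports that pDCs transferred into leukemic mice were not found among T-DCs. No group was sorted as pDCs, so the values are levels of pDC genes in samples labelled as other DCs.

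pDCs are DCs that sense viral nucleic acids through endosomal Toll-like receptors and can release large amounts of type I interferon. Their fate depends on the E protein Tcf4 (E2-2), with Spib and Runx2 among the factors that act beside it, and is opposed by Id2, which favours cDCs. In mouse spleen they carry Siglec-H, a lectin receptor that signals through the adaptor Tyrobp (DAP12), and they have less surface MHC class II than cDCs. Several of the genes are also used by other cells, Spib and Ly6d by B-lineage cells, Ccr9 by thymocytes, and Siglec-H by some macrophages.

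On genome build GRCm38 (mm10), 4 members lie on chromosome 7, Siglech (chr7:55768178-55778925, plus strand), Cox6a2 (chr7:128205435-128206387, minus), Klk1 (chr7:44225360-44229618, plus) and Spib (chr7:44525993-44532071, minus). Klk1 and Spib are 296375 bases apart. The others are Ccr9 (chr9:123678439-123784330, plus), Ly6d (chr15:74762056-74763620, minus), Pacsin1 (chr17:27655509-27711482, plus), Cd300c (chr11:114956116-114969157, minus) and Runx2 (chr17:44495987-44814797, minus). The start and end of all 9 were the same in GENCODE M21. The sources do not say whether counting used strand, and the models of Ccr9, Cox6a2, Klk1 and Runx2 overlap other genes, among them Lztfl1 and Slc6a20a at Ccr9, Itgad at Cox6a2, Gm10109 at Klk1 and Supt3 at Runx2. These overlaps are of whole gene spans, not of exons, and whether reads of such neighbours were counted for the member was not tested.

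RefSeq start sites (GRCm38.p6) were found for 7 of the 9 members, not for Ly6d and Cox6a2. The 250 bases before the start are shown for Siglech, Klk1 and Cd300c, whose levels moved together across the samples, and for Spib, whose levels did not follow them. Capitals mark, on either strand, the E-box CANNTG, which E proteins such as Tcf4 can bind, the RUNX core TGTGGT and the purine-rich ETS core GAGGAA. Each line reads 5′ to 3′ on the strand of the gene.
Siglech, chr7:55767934-55768183, plus strand: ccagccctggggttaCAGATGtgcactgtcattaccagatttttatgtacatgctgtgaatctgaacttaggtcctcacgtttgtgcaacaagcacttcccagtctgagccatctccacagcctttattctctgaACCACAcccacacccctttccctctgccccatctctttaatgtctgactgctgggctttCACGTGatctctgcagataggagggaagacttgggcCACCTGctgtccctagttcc
Klk1, chr7:44225110-44225359, plus strand: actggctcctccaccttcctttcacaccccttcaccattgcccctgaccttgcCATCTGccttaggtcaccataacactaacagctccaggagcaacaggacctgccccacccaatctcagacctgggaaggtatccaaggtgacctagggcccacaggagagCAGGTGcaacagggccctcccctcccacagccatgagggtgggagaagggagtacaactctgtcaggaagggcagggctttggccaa
Cd300c, chr11:114960508-114960757, minus strand: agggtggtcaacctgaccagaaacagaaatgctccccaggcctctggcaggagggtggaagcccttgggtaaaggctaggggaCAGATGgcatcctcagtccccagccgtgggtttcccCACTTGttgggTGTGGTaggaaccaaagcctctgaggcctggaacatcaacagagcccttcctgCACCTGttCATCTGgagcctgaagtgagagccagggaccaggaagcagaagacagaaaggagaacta
Spib, chr7:44532072-44532321, minus strand: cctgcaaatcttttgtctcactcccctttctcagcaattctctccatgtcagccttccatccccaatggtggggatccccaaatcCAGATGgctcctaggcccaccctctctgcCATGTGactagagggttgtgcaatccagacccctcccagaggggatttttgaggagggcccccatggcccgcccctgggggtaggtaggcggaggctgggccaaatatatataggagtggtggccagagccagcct
The E-box form CAGGTG, also read as CACCTG on the other strand, stood 20 bases before the start of Siglech, 87 before Klk1, 67 before Cd300c and 85 before Ccr9. It was in 4 of the 7 windows, against 17.2% of 32851 RefSeq windows of the same length. Every CAGGTG is also counted as a CANNTG, which was in 6 of the 7 windows and in 66.2% of all. The window without a CANNTG, not shown, was that of Pacsin1, whose levels also moved with those of Siglech, Klk1 and Cd300c. TGTGGT was in 4 of 7 windows (Siglech, Pacsin1, Cd300c and Runx2), against 14.0% of all, and GAGGAA was in 0 of 7, against 23.3%. These matches are a description of letters in 1 window per gene. The RefSeq start of Cd300c lies 8650 bases from the 5′ end of the deposited gene model, that of Pacsin1 29730 and that of Ccr9 88772.

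Values are FPKM, that is, read numbers corrected for gene length and for a sample-specific scaling size. Reads on genes ran from 15360815 to 18440913 per sample. A value above 0 in at least 1 sample was listed for 28859 genes, and 12746 genes that reached an FPKM of 1 in 3 or more samples were tested, all 9 members among them. Beside these depths, 2 features of the samples touch the results. T-mDC samples 2 and 3 were much alike, with a chi-square per gene of 1.80 over genes whose reads in the pair came to 20 or more but under 200, where counting noise gives about 1 and the other 8 pairs within a group gave 5.45 to 19.0. Hemoglobin genes took 3.82% and 3.0% of reads in T-DC samples 2 and 3, and 0.0422% in T-DC sample 1. cDC1 markers summed to 213 to 314 FPKM in N-mDCs, 301 to 470 in T-mDCs and 23.2 to 111 in T-DCs. cDC2 markers summed to 419 to 450 FPKM in N-mDCs, 239 to 318 in T-mDCs and 119 to 444 in T-DCs, where sample 1 lay inside the N-mDC range. Most of the sum of T-DC sample 1 was 1 gene, Sirpa, at 404 FPKM there. Of the 7 cDC2 markers, 5 were called lower in T-DCs than N-mDCs by limma (Clec10a, Clec4a4, Cd209a, Mgl2 and Irf4), beside 10.3% of all tested genes.

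Siglech, Ly6d, Cox6a2, Klk1, Cd300c and Pacsin1 had the highest mean in N-mDCs, the next in T-DCs and the lowest in T-mDCs. Spib was near 60 FPKM in both kinds of mature cDC and several times lower in T-DCs, and Runx2 was at about 10 FPKM in all 3 groups. Siglech, the defining pDC receptor, was at 31.2, 50.2 and 69.3 FPKM in N-mDC samples 1 to 3. T-DC samples read 28.1, 12.2 and 9.23 FPKM, and T-mDC samples 14.1, 1.80 and 1.49. Every N-mDC sample was above every T-DC and T-mDC sample, while T-DCs and T-mDCs overlapped because T-mDC sample 1 lay above T-DC samples 2 and 3. Mean FPKM ± SD (n = 3) was 50.2 ± 19.0 for N-mDCs, 16.5 ± 10.1 for T-DCs and 5.79 ± 7.18 for T-mDCs. The SD of T-mDCs exceeded their mean, since sample 1 was 8.53 times the mean of samples 2 and 3.

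**Figure D1:**
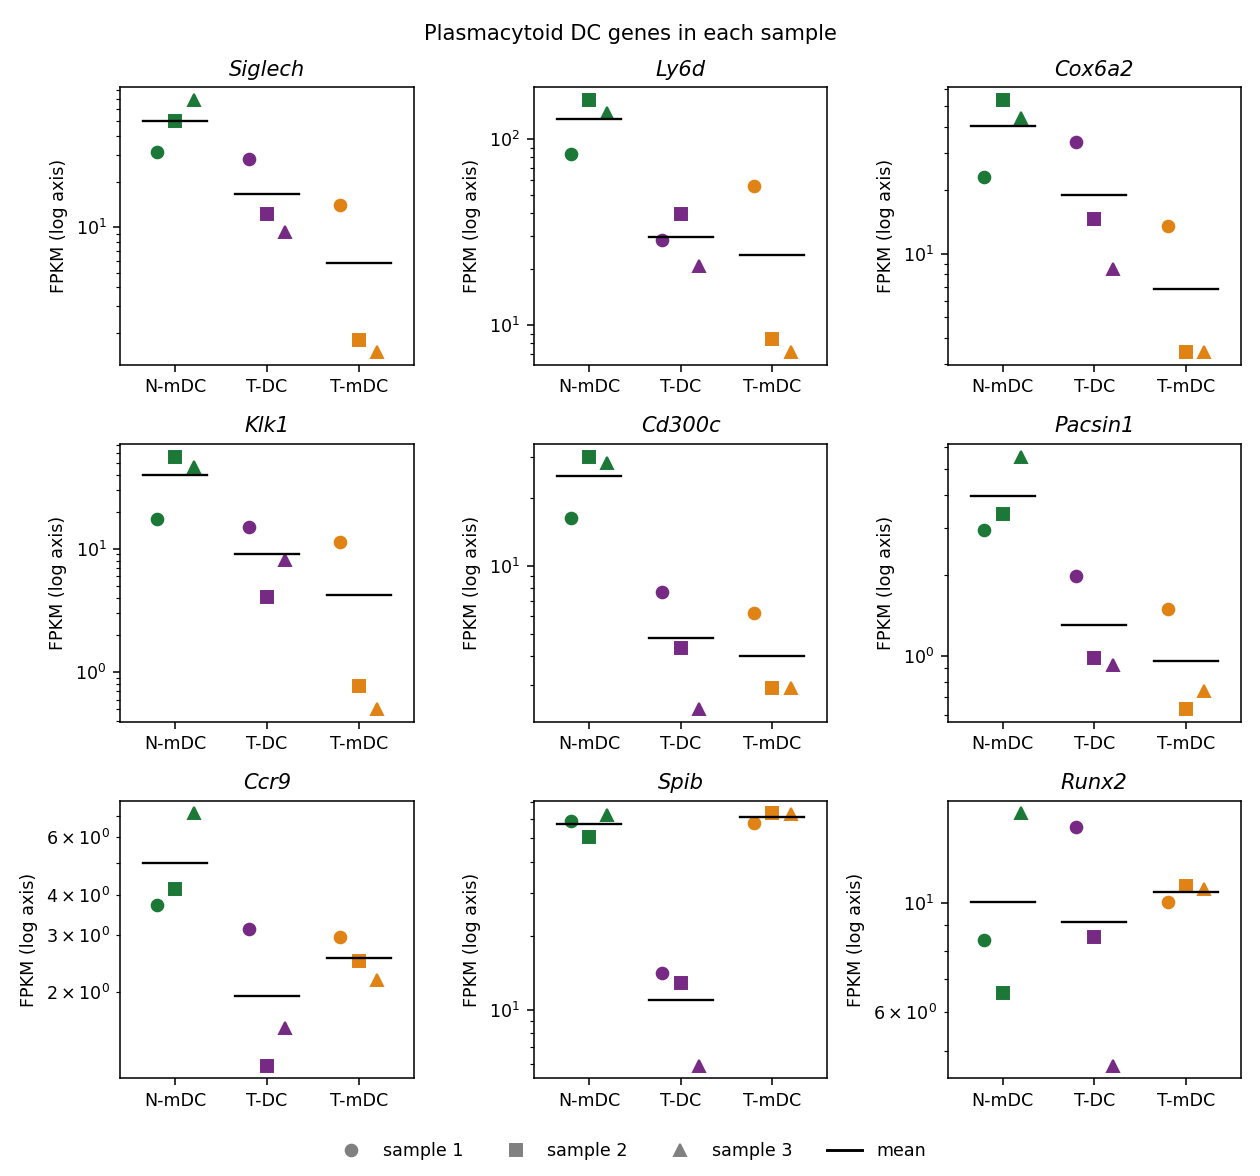
Each panel plots 1 gene, with FPKM on a log axis by group. Points are single samples (circle sample 1, square sample 2, triangle sample 3) and bars are means of 3 samples. For Spib the T-DC samples sit at 5.90 to 14.1 FPKM, below all others at 50.8 or more, and for Siglech T-mDC sample 1 sits at 14.1 FPKM, apart from samples 2 and 3 at 1.80 and 1.49.

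Among the surface and secreted products, Ly6d, a GPI-anchored protein of lymphoid and pDC progenitors, was the most abundant member in N-mDCs per length. It was at 82.96, 162 and 137 FPKM (N-mDCs), 28.8, 39.5 and 20.8 FPKM (T-DCs) and 56.0, 8.42 and 7.16 FPKM (T-mDCs). N-mDCs did not overlap either leukemic group, and T-mDC sample 1 was above all T-DC samples. Klk1, tissue kallikrein, a secreted serine protease, was at 17.5, 55.9 and 46.0 FPKM (N-mDCs), 15.0, 4.07 and 8.19 FPKM (T-DCs) and 11.4, 0.769 and 0.505 FPKM (T-mDCs). The lowest N-mDC sample stood only just above the highest T-DC sample, and T-mDC sample 3 held 10 reads of this gene, where N-mDCs held 295 to 969. Cd300c, an immunoglobulin-like receptor, was at 16.3, 30.3 and 28.4 FPKM (N-mDCs), 7.71, 4.36 and 2.35 FPKM (T-DCs) and 6.22, 2.92 and 2.91 FPKM (T-mDCs). The leukemic groups overlapped each other throughout, and both lay below N-mDCs. Ccr9, the receptor for the chemokine CCL25, was at 3.72, 4.17 and 7.12 FPKM (N-mDCs), 3.12, 1.19 and 1.55 FPKM (T-DCs) and 2.96, 2.50 and 2.19 FPKM (T-mDCs). Its T-DC and T-mDC samples overlapped, below all N-mDC samples.

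Of the members that act inside the cell, Cox6a2, a subunit of mitochondrial complex IV best known from heart and skeletal muscle, was at 23.04, 53.5 and 44.1 FPKM (N-mDCs), 34.0, 14.6 and 8.52 FPKM (T-DCs) and 13.6, 3.42 and 3.44 FPKM (T-mDCs). T-DC sample 1 lay inside the N-mDC range, and all T-mDC samples lay below N-mDCs. Pacsin1, a membrane-curving adaptor of endocytosis, was at 2.96, 3.38 and 5.55 FPKM (N-mDCs), 1.99, 0.979 and 0.929 FPKM (T-DCs) and 1.49, 0.634 and 0.742 FPKM (T-mDCs). These are low levels, at 80 to 657 reads per sample.

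The transcription factors followed other patterns. Spib, an ETS family factor of pDCs and B cells, was at 58.7, 50.8 and 62.0 FPKM (N-mDCs), 14.1, 12.9 and 5.90 FPKM (T-DCs) and 57.6, 63.2 and 63.1 FPKM (T-mDCs). All T-DC samples were below all samples of both other groups, and N-mDCs and T-mDCs overlapped. Runx2, a Runt family factor linked to the exit of pDCs from bone marrow, was at 8.42, 6.57 and 15.2 FPKM (N-mDCs), 14.2, 8.54 and 4.68 FPKM (T-DCs) and 10.1, 10.8 and 10.7 FPKM (T-mDCs). All 3 groups overlapped, with the widest spread in N-mDCs and T-DCs.

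The same samples stood at the ends of their groups for most members. Within N-mDCs, sample 1 was the lowest for 7 of 9 members, and sample 2 was the lowest for Spib and Runx2. Within T-DCs, sample 1, the sample with few hemoglobin reads, was the highest for 8 members, all but Ly6d. Within T-mDCs, sample 1 was the highest for the same 7 members for which N-mDC sample 1 was the lowest, and it was the lowest for Spib and Runx2. It was 17.8 times the mean of T-mDC samples 2 and 3 for Klk1, 7.19 times for Ly6d, 3.95 times for Cox6a2 and 2.13 times for Cd300c. The N-mDC mean was 3.57 times the level of T-mDC sample 1 and 30.4 times the mean of T-mDC samples 2 and 3 for Siglech.

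Over the 9 samples, Pearson's r of log2(FPKM + 1) between any pair of Siglech, Ly6d, Cox6a2, Klk1, Cd300c and Pacsin1 was 0.876 to 0.979 (15 pairs). Ccr9 had r of 0.639 to 0.888 with these 6 genes, Runx2 -0.021 to 0.28 and Spib -0.015 to 0.418. These correlations describe samples that share groups, sorts and libraries, and no test was made of them. The 5 tested genes most like Siglech by the same measure were Fam3c (r = 0.981), Cox6a2 (0.979), Slco4a1 (0.972), Klk1 (0.971) and Atp1b1 (0.971), out of 12745 compared. Ly6d ranked 48th, Pacsin1 107th and Cd300c 207th, while Ccr9 ranked 952nd, Runx2 4979th and Spib 6100th. Fam3c was at 7.10 to 10.2 FPKM (N-mDCs), 5.87 to 7.89 FPKM (T-DCs) and 3.68 to 6.02 FPKM (T-mDCs), a far narrower span than Siglech. Slco4a1, an organic anion transporter, ranged over 1.57 to 3.59 FPKM (N-mDCs) and 0.226 to 1.19 FPKM (T-mDCs). Atp1b1, a subunit of the sodium-potassium pump and itself a known pDC transcript, was at 8.30 to 19.7 FPKM (N-mDCs), 2.95 to 8.73 FPKM (T-DCs) and 1.55 to 5.33 FPKM (T-mDCs).

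**Figure D2:**
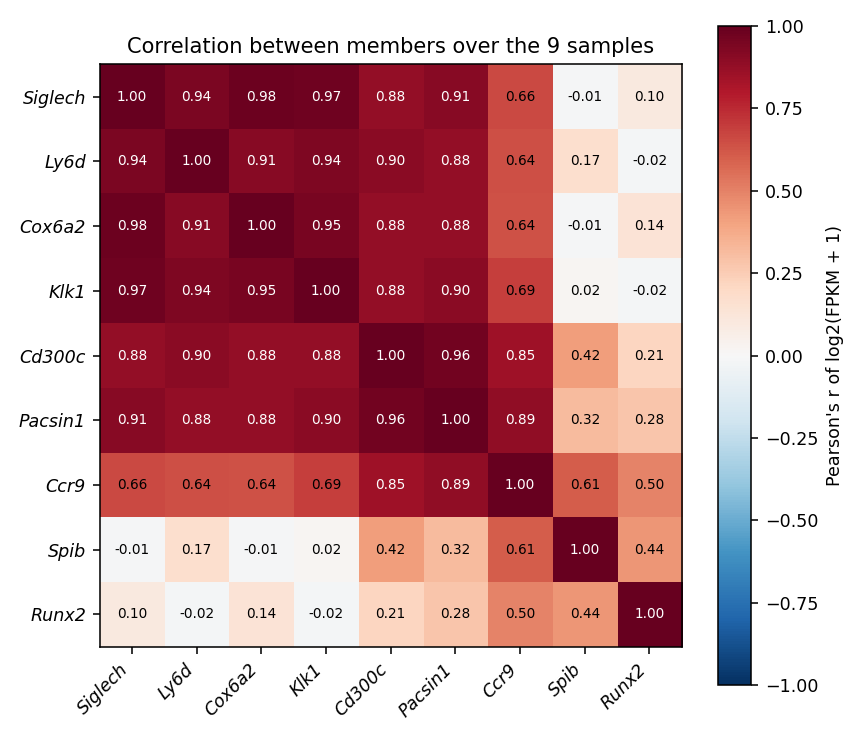
The matrix gives Pearson's r of log2(FPKM + 1) between each pair of the 9 genes over the 9 samples, from -1 (blue) to 1 (red). Siglech, Ly6d, Cox6a2, Klk1, Cd300c and Pacsin1 form a block at 0.876 or above, and Spib and Runx2 stand outside it.

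T-DCs were compared with N-mDCs to ask how pDC genes stand in MHCIIlo cells of leukemic spleen against mature cDCs of normal spleen. T-DCs expressed lower levels of Spib, Cd300c, Pacsin1 and Ccr9, 4 of the 9 members, and 10.3% of all tested genes were called lower in this comparison (limma, Benjamini-Hochberg adjusted p under 0.05 over 12746 genes). The log2 fold change of FPKM + 1 was -2.36 for Spib (SE 0.29, adjusted p = 0.00179), -2.22 for Cd300c (SE 0.41, adjusted p = 0.00914), -1.10 for Pacsin1 (SE 0.28, adjusted p = 0.0305) and -1.04 for Ccr9 (SE 0.29, adjusted p = 0.0422). Because 1 was added to each FPKM, the changes of Pacsin1 and Ccr9, both at a few FPKM, are understated. For Ly6d the log2 fold change was -2.06 (limma adjusted p = 0.0704), Klk1 of -2.02 (0.119), Siglech of -1.63 (0.135) and Cox6a2 of -1.17 (0.200), none past the threshold. Their 95% intervals were wide, from -3.61 to -0.51 for Ly6d and from -3.21 to -0.04 for Siglech. Runx2 had -0.16, with an interval from -1.03 to 0.70. The samples of 7 members, all but Cox6a2 and Runx2, did not overlap and were lower in T-DCs, as were those of 16.4% of all tested genes. The median log2 fold change over the members was -1.63, against 0.05 over all tested genes. In bulk samples, fewer cells of a type and less RNA per cell cannot be told apart.

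The calls of Spib and Cd300c were kept under all 18 alternatives. These were changes of processing or of model, and 9 fits that each left out 1 sample. Median-of-ratios scaling, counted in each total of alternatives, repeated the main values and could not move a call. Those of Pacsin1 and Ccr9 were kept under 7 and 4 of 17, with adjusted p from 0.0065 to 0.101 and from 0.00447 to 0.139. With T-DC sample 1, the sample with few hemoglobin reads, as the only T-DC sample, the call of Spib alone remained (log2 fold change -1.94, limma adjusted p = 0.00921), and Cd300c was at -1.53 (adjusted p = 0.104). This fit was added after the hemoglobin reads had been seen, and it takes the spread of the lone sample from the other groups.

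T-DCs were compared with T-mDCs to set MHCIIlo cells against mature cDCs of the same disease. Spib was the 1 member past the threshold, lower in T-DCs (log2 fold change -2.46, SE 0.29, limma adjusted p = 0.00197), and 8.79% of all tested genes were called lower. It was also the only member whose samples did not overlap, lower in T-DCs, as for 18.1% of all tested genes. Its call was kept under all 18 alternatives and with T-DC sample 1 alone (-2.04, adjusted p = 0.024). Siglech, Klk1, Cox6a2 and Ly6d had log2 fold changes above 0, at 1.74 (limma adjusted p = 0.134), 1.501 (0.260), 1.40 (0.161) and 0.86 (0.428), none of them called. The interval of Siglech ran from 0.15 to 3.33 and that of Klk1 from -0.37 to 3.38, so a higher level in T-DCs of several fold is within both. Cd300c (0.17), Pacsin1 (0.23), Runx2 (-0.29) and Ccr9 (-0.31) were near 0 on the same scale. The calls of Siglech, Ly6d and Klk1 turned on T-mDC sample 1. Without it, 4 members were called, Spib lower and Siglech (2.58, limma adjusted p = 0.0117), Ly6d (1.76, 0.0163) and Klk1 (2.48, 0.0285) higher in T-DCs, but the T-mDC samples that then remain are the 2 that were much alike. When each sample was left out, the number of all genes called ranged from 541 to 4475. The median over the members was 0.23, against 0.07 over all tested genes.

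T-mDCs were compared with N-mDCs to ask how the genes differ between mature cDCs of leukemic and normal spleen. T-mDCs expressed lower levels of Siglech, Cd300c and Pacsin1, 3 of the 9 members, and 1.52% of all tested genes were called lower. The log2 fold change of FPKM + 1 was -3.37 for Siglech (SE 0.70, limma adjusted p = 0.0484), -2.39 for Cd300c (SE 0.41, adjusted p = 0.0259) and -1.33 for Pacsin1 (SE 0.28, adjusted p = 0.0485). Klk1 (-3.52), Ly6d (-2.92) and Cox6a2 (-2.56) had larger or similar log2 fold changes and were just past the other side of the threshold, at adjusted p = 0.0740, 0.0736 and 0.0749. Ccr9 was at -0.72 (0.256), Spib at 0.10 with an interval from -0.55 to 0.75, and Runx2 at 0.13 with an interval from -0.73 to 1.00. The samples of 7 members, all but Spib and Runx2, did not overlap and were lower in T-mDCs, as were those of 15.7% of all tested genes. The median over the members was -2.39, against 0.03 over all tested genes.

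These calls were close to the threshold and moved with the samples used. Siglech was past it in 4 of 18 alternatives (adjusted p from 0.0145 to 0.203), Pacsin1 in 4 of 17 (0.02 to 0.211) and Cd300c in 11 of 18 (0.00909 to 0.124). With T-mDC samples 2 and 3 averaged into 1 sample, 0 members were called by limma, and 6 had an unadjusted p under 0.05. Leaving out T-mDC sample 2 or 3, or N-mDC sample 2 or 3, also gave 0, with 6 or 7 members at an unadjusted p under 0.05. In the main limma fit, 7 members and 2130 of all 12746 tested genes had an unadjusted p under 0.05. voom on the whole reads of all 9 samples called 1, Cd300c. Leaving out T-mDC sample 1, or T-DC sample 1, gave 6 members called. The number of all genes called moved as well, from 23 to 1022 when each sample was left out. The log2 fold changes themselves kept their sign under every alternative for Siglech, Ly6d, Cox6a2, Klk1, Cd300c, Pacsin1 and Ccr9. All 3 comparisons share samples, so they are not independent of each other.

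**Figure D3:**
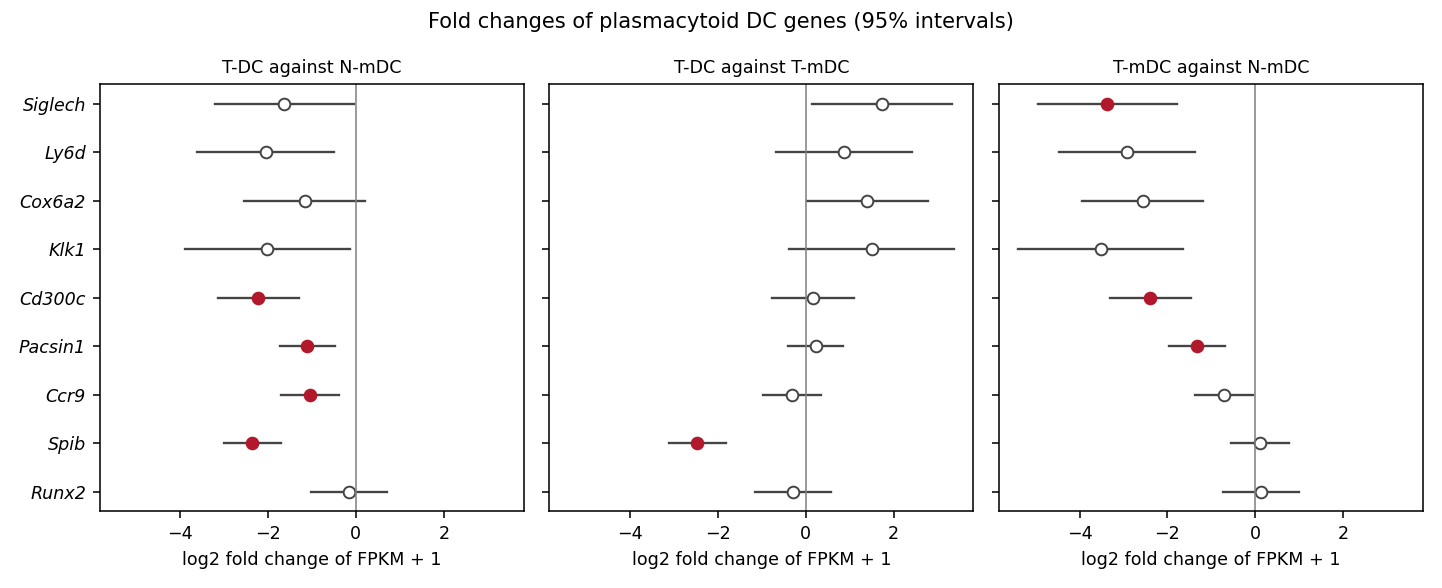
Points are log2 fold changes of FPKM + 1 from limma and lines their 95% intervals, for each member in the 3 comparisons, filled red where the adjusted p was under 0.05. Spib is filled in both T-DC comparisons and at 0.10 between T-mDCs and N-mDCs, while Siglech is filled only between T-mDCs and N-mDCs, at -3.37.

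Marker genes of other cell types also differed between the samples, some in the direction of the members and others not. B cell markers, which bear on Spib and Ly6d, summed to 275 to 352 FPKM (N-mDCs), 35.6 to 108 FPKM (T-DCs) and 71.0 to 216 FPKM (T-mDCs). Of these, 7 of 9 tested markers were called lower in T-DCs than N-mDCs, beside 10.3% of all tested genes. By sample, in the order 1 to 3, the B cell sum was 310, 352 and 275 FPKM (N-mDCs), 47.2, 108 and 35.6 FPKM (T-DCs) and 216, 71.4 and 71.0 FPKM (T-mDCs). NK cell markers summed to 47.8 to 142 FPKM (N-mDCs), 1.33 to 28.0 FPKM (T-DCs) and 1.55 to 2.87 FPKM (T-mDCs). Against N-mDCs, 5 of 6 were called lower in T-DCs and 6 of 6 in T-mDCs, beside 10.3% and 1.52% of all tested genes. Macrophage markers, which bear on Siglech, summed to 2136 to 4087 FPKM (N-mDCs), 649 to 3227 FPKM (T-DCs) and 455 to 1529 FPKM (T-mDCs). None of the 10 was called in any of the 3 comparisons by limma. Between T-mDCs and N-mDCs, 9 had an unadjusted limma p under 0.05, as had 2130 of all 12746 tested genes. All 10 had T-mDC samples below N-mDC samples without overlap, as had 15.7% of all tested genes. For macrophage markers, sample 1 was again the highest of T-DCs and of T-mDCs. Plasma cell markers ranged from 98.8 to 528 FPKM (N-mDCs), 34.5 to 496 FPKM (T-DCs) and 12.6 to 175 FPKM (T-mDCs), and T-DC sample 1, high for the members, was the lowest of its group. Erythroid genes summed to 620 FPKM in T-DC sample 1 and to 43051 and 58588 FPKM in the other T-DC samples. Neutrophil markers summed to 7.78 FPKM in T-DC sample 1 and to 3285 and 1147 FPKM in T-DC samples 2 and 3, against 55.3 to 612 FPKM (N-mDCs) and 3.24 to 12.6 FPKM (T-mDCs). T lineage markers, which bear on Ccr9, summed to 5.24, 78.4 and 18.1 FPKM in T-DC samples 1 to 3, 74.2 to 98.7 FPKM in N-mDC samples and 55.6 to 129 FPKM in T-mDC samples. Most of the T-mDC sum was 1 gene, Tcf7, at 49.2 to 116 FPKM there, 18.4 to 49.8 FPKM in N-mDCs and 1.64 to 21.1 FPKM in T-DCs. Of 8 tested T lineage markers, 7 had log2 fold changes below 0 in T-mDCs against N-mDCs. Their median was -1.25, against 0.03 over all tested genes. No marker of these 7 lists was at 0 in all samples of a group, and the part of such cells in the differences was not tested.

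**Figure D4:**
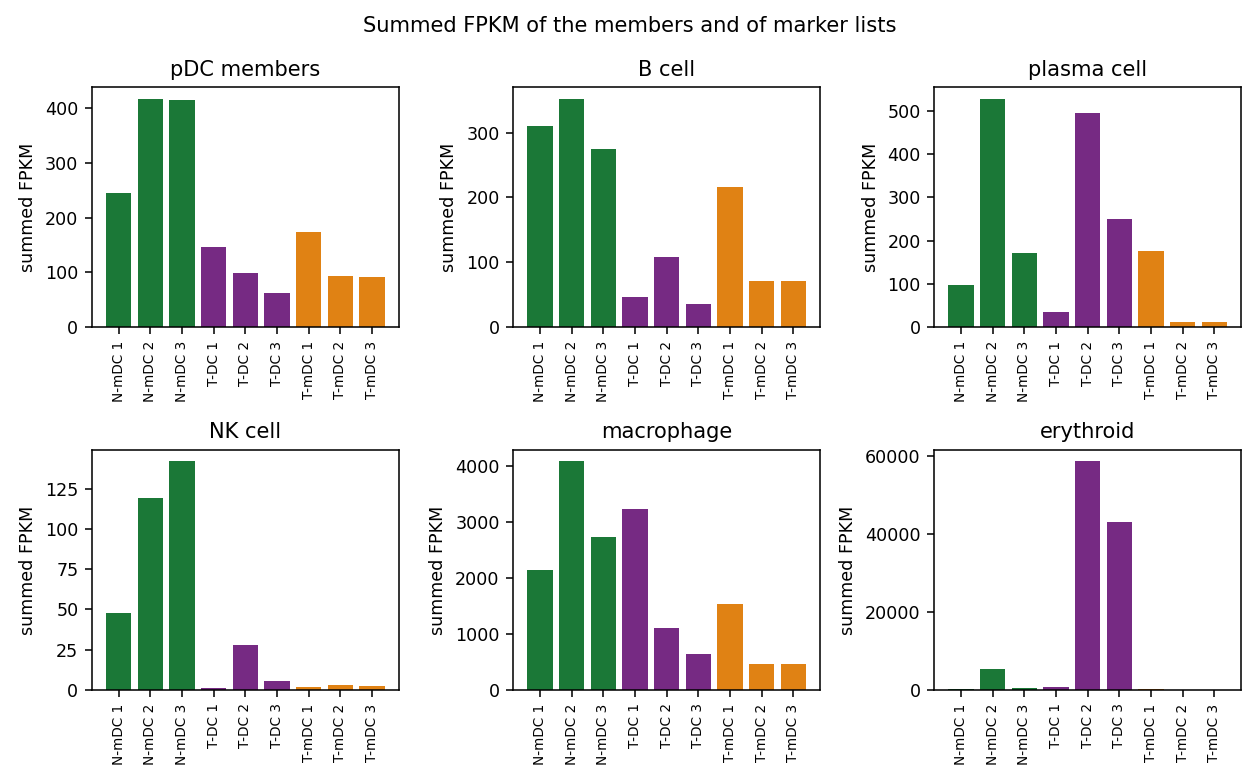
Bars are the summed FPKM of the 9 members and of 5 marker lists in each sample, on linear axes that start at 0 and differ between panels (green N-mDC, purple T-DC, orange T-mDC). The members sum to 245 to 417 FPKM (N-mDCs), 62.2 to 147 FPKM (T-DCs) and 92.2 to 173 FPKM (T-mDCs). Spib alone gives 57.6 to 63.2 FPKM of the T-mDC sums and 5.90 to 14.1 FPKM of the T-DC sums. Erythroid genes stand high in T-DC samples 2 and 3.

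Near relatives of the members were read from lists of their families. Siglece, an inhibitory receptor of myeloid cells, was at 32.5 to 136 FPKM in T-DCs and was called in no comparison, and Siglecg, an inhibitory receptor of B cells and some DCs, was lower in T-DCs than N-mDCs (-3.51) and T-mDCs (-3.11). Several Cd300 genes, receptors encoded beside Cd300c, differed in the other direction. Of 10 tested relatives, 4 were called higher in T-DCs than N-mDCs (Cd300ld, Cd300ld4, Cd300ld5 and Cd300e) and 4 higher than T-mDCs (Cd300lb, Cd300ld, Cd300ld4 and Cd300ld5), where 6.10% and 5.44% of all tested genes were called higher. Cd300e, a receptor of monocytes and the most abundant of them, was at 148 to 414 FPKM in T-DCs and 27.3 to 44.9 in N-mDCs (log2 fold change 2.74, limma adjusted p = 0.0106). Cd300c2 was called in no comparison. Reads of such similar genes may be split between them, as may those of the kallikreins. Klk1b27, close in sequence to Klk1, was at 2.37 to 8.12 FPKM in N-mDCs and 0.122 to 1.13 FPKM in T-mDCs (log2 fold change -2.16, adjusted p = 0.0688), and Klk8 was lower in T-DCs than N-mDCs (-1.49).

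The chemokine receptor of migrating DCs, Ccr7, was lower in T-DCs than N-mDCs (-5.90) and T-mDCs (-6.43), and Ccr3 was lower than N-mDCs in T-DCs (-2.19) and in T-mDCs (-2.71). Cox6a1, the form of the Cox6a2 subunit found in most tissues, was at 196 to 457 FPKM over the 9 samples and called in no comparison, like Cox8a, another complex IV subunit. Pacsin2, the broadly expressed relative of Pacsin1, was at 18.5 to 39.3 FPKM and called in none. Spi1 (PU.1), the ETS factor most like Spib, was at 116 to 307 FPKM and called in none, and so was Spic, a factor of red pulp macrophages. Of the Runx2 relatives, Runx3 was lower in T-DCs than N-mDCs (-2.22, limma adjusted p = 0.00128) and T-mDCs (-1.94), while Cbfb, the partner of all Runt factors, was called in none. Ly6e and Ly6a, relatives of Ly6d, were called in none.

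Other genes of the pDC programme were read from lists, against the shares of all tested genes called lower (10.3% in T-DCs against N-mDCs, 8.79% in T-DCs against T-mDCs and 1.52% in T-mDCs against N-mDCs). Of 7 regulators, 1 was called lower in T-DCs than N-mDCs and 2 lower than T-mDCs, beside 10.3% and 8.79% of all genes, and 1 gene of 7 is near the background. Tcf4, the central one, was at 2.66 to 6.01 FPKM (N-mDCs), 1.52 to 2.93 FPKM (T-DCs) and 2.09 to 2.80 FPKM (T-mDCs), and its log2 fold changes were -0.67 and -0.14 in T-DCs against these groups, neither of which passed. Irf8, a factor of pDCs and of cDC1, was at 26.3 to 90.2 FPKM in T-DCs and 136 to 181 FPKM in T-mDCs (-1.87, limma adjusted p = 0.0194), and at 101 to 136 FPKM in N-mDCs (-1.34, 0.0534). Cbfa2t3 (ETO2), a corepressor in pDCs, was lower in T-DCs than N-mDCs (-1.20) and T-mDCs (-1.66). Irf7, which drives interferon transcription, was at 22.6 to 93.5 FPKM in T-DCs and was called in no comparison. Of the 4 factors that oppose the pDC fate or mark cDCs, Batf3 and Zbtb46 were lower in T-DCs than in both groups (-2.41 and -1.96 against N-mDCs, -2.50 and -2.39 against T-mDCs). Nfil3 was lower in T-DCs than N-mDCs (-1.003), with a limma adjusted p of 0.04997, right at the threshold. Id2 was called in none.

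Of 12 nucleic acid sensing genes, 1 was called lower in T-DCs than N-mDCs and 2 lower than T-mDCs, beside 10.3% and 8.79% of all genes, so the first count is near the background. Unc93b1, the chaperone that carries Toll-like receptors to endosomes, was lower in T-DCs than N-mDCs (-1.37), and Tlr9 (-1.85) and Traf6 (-1.14) were lower than T-mDCs. Tlr9, the DNA sensor, was at 5.28 to 18.5 FPKM in T-DCs, 8.75 to 19.6 FPKM in N-mDCs and 38.1 to 41.9 FPKM in T-mDCs. Tlr7, the RNA sensor, was at 21.8 to 53.1 FPKM in T-DCs, above all T-mDC samples at 7.67 to 19.8 FPKM, but did not pass (1.44, limma adjusted p = 0.0587). Type I interferon genes were hardly read. Of 15, a read was found for 3 (Ifna4, Ifnab and Ifnb1), with at most 5 reads in a sample, and none could be tested, so a difference in interferon transcripts was not detectable at this depth.

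Of 15 other pDC surface genes, 5 were lower in T-DCs than N-mDCs (Cd7 -3.42, Flt3 -2.76, Cd209d -2.65, Lag3 -1.35 and Bst2 -1.26), 2 lower than T-mDCs (Flt3 -3.21 and Klra17 -1.93), and 2 lower in T-mDCs than N-mDCs (Cd209d -3.45 and Bst2 -2.13). The shares over all genes were 10.3%, 8.79% and 1.52%, and the 2 genes lower than T-mDCs are close to theirs. Of the 15, 11 had log2 fold changes below 0 in T-DCs against N-mDCs, and the rest did not. Lifr was at 10.1 to 34.4 FPKM in T-DCs, above all N-mDC samples at 1.99 to 4.54 FPKM, but was called in no comparison. Bst2 (tetherin, PDCA-1), an interferon-induced antigen of mouse pDCs, was at 148, 373 and 298 FPKM (N-mDCs), 115, 87.2 and 119 FPKM (T-DCs) and 70.9, 53.1 and 50.1 FPKM (T-mDCs), the order seen for Siglech. Flt3, the receptor for the growth factor of all DCs, instead had the order of Spib, with 4.48 to 15.4 FPKM in T-DCs and at least 44.4 FPKM in every other sample. Of 14 tested genes among 15 other pDC transcripts, 3 were lower in T-DCs than N-mDCs (Cyb561a3 -1.94, Fcrla -1.91 and Plac8 -1.14). Against T-mDCs, Cyb561a3 was lower (-1.37), and Smim5 (2.57) and Lefty1 (1.43) were higher. Over all genes, 10.3% were lower against N-mDCs, and 8.79% were lower and 5.44% higher against T-mDCs. Smim5 was at 28.4 and 27.4 FPKM in T-DC samples 2 and 3 and 7.31 FPKM in T-DC sample 1, the order of the hemoglobin reads, whose part was not tested. Of 11 genes found from the pDC signature the study used for its single cells, 3 were lower in T-DCs than N-mDCs (Spib, Bst2 and Gzmb) and 2 lower than T-mDCs (Spib and Tlr9), beside 10.3% and 8.79% of all genes. Spib is a member as well. Gzmb, a protease of NK cells as well as pDCs, was at 3.87 to 21.9 FPKM in N-mDCs and 0.194 to 3.73 FPKM in T-DCs (-2.18, limma adjusted p = 0.0466).

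**Figure D5:**
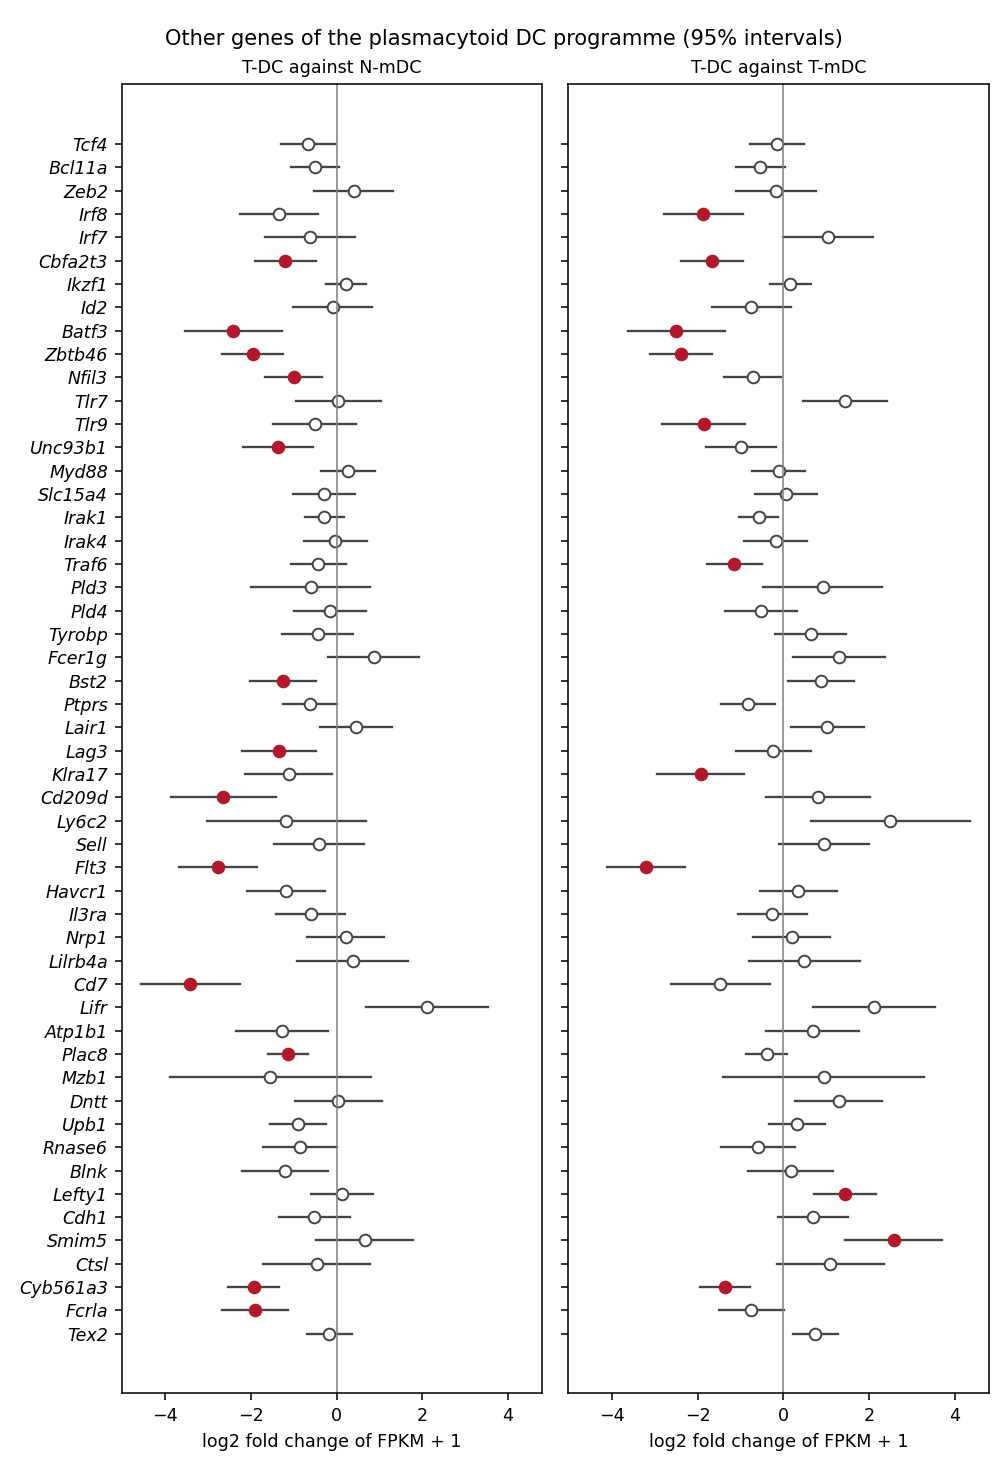
Points are log2 fold changes of FPKM + 1 from limma in T-DCs against N-mDCs (left) and against T-mDCs (right), with 95% intervals, for the 52 tested genes of the lists of regulators, opposing factors, nucleic acid sensing, surface genes and transcripts. Filled red points had an adjusted p under 0.05. Most points lie left of 0 against N-mDCs, and Flt3, Batf3, Zbtb46, Cbfa2t3 and Cyb561a3 are filled in both panels.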

How the data were processed

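RNA-seq values of 9 samples, 3 per group, were analysed. The authors deposited FPKM per gene with gene coordinates and lengths on build mm10, as the submitters' processing notes name it. The aligner, annotation, counting and test are not given in the sources used here. FPKM times length gave whole reads to within 5.75e-05 of a read. Samples were grouped by their titles. Values were fitted as log2(FPKM + 1) in R 4.3.3 by limma 3.58.1 with an empirical Bayes trend and all 9 samples in a single model. Adjusted p is Benjamini-Hochberg over the 12746 genes tested. The procedure was tested on simulated data. The members and lists were chosen with earlier results of these data known. Named genes were all members, genes past the threshold in a T-DC comparison from each pDC list (at most 4 per list and comparison by size), Tcf4, Irf8, Irf7, Bst2, Tlr7 and Tlr9, the 2 most expressed genes of each family, and the 5 genes most like Siglech. The names given for called lists such as the Cd300 genes were added after their values were seen. Upstream sequences came from RefSeq. Reads, single-cell data and other assays were not used here. Depth was 15360815 to 18440913 reads.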

Additional observations from a re-analysis of the deposited data

How the results depend on the processing

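Of 480 values of single members under the alternatives set out for them, 401 kept their direction and side of the threshold, 57 lost and 16 gained a call, and 6 changed sign. Those that changed sign were small: Cd300c in T-DCs against T-mDCs (-0.11 as TPM, and -0.18 to 0.51 when each sample was left out) and Runx2 when each sample was left out (-0.51 to 0.20 in T-DCs against N-mDCs, -0.643 to 0.069 against T-mDCs, and -0.10 to 0.44 in T-mDCs against N-mDCs). Median-of-ratios scaling gave the same values, because the authors' scaling sizes already had those ratios. Its values are among the 401 and could not have moved. Members called in T-DCs against N-mDCs numbered 4, and 2 with no filter, with the stricter filter (FPKM of at least 5, which tests 7 members), as TPM and with the replicate block. In T-mDCs against N-mDCs they numbered 3, and 1 with a pseudocount of 0.1, no filter, the stricter filter or voom on whole reads, and 0 as TPM, with the replicate block, or with T-mDC samples 2 and 3 averaged (limma, with 6 at an unadjusted p under 0.05 in each). In the main limma fit of this comparison, 7 members and 2130 of 12746 genes had an unadjusted p under 0.05. All genes called in T-mDCs against N-mDCs numbered 282, and 107 (pseudocount 0.1), 111 (stricter filter), 99 (TPM), 78 (replicate block), 850 (only the groups compared), 173 (voom) and 23 (mean of T-mDC samples 2 and 3). In T-DCs against N-mDCs they numbered 2096, and 1378 (replicate block), 1070 (only the groups compared) and 1394 (mean of T-mDC samples 2 and 3). In T-DCs against T-mDCs they numbered 1813, and 1190 (stricter filter), 1036 (only the groups compared) and 540 (mean of T-mDC samples 2 and 3). When each sample was left out, members called ranged from 2 to 6, 1 to 4 and 0 to 6 for the comparisons in the order of the report, and all genes called from 980 to 5030, 541 to 4475 and 23 to 1022. The highest counts came without T-DC sample 1 for all genes. With T-DC sample 1 as the only T-DC sample, a fit added after seeing the data, 1 member was called in T-DCs against N-mDCs, and all genes called numbered 746, 741 and 849 in the same order. Runx2 then changed sign in both T-DC comparisons (0.54 and 0.41), as did Ccr9 against T-mDCs (0.22). The labels do not say whether same-numbered samples were paired, and the main fit treated them as unpaired. Same-numbered samples of different groups had correlations of their deviations from -0.475 to 0.269, and others -0.361 to 0.427. For T-DCs with T-mDCs, which alone could share an animal, the same-numbered values were -0.071, -0.118 and 0.022. With 3 samples per group, such correlations cannot decide whether samples were paired. The cause of these moves was not tested.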
